A study of Mus musculus with 12 samples.

Results

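The genes described here are 8 genes of Schwann cells and myelin, S100b, Sox10, Egr2, Mbp, Prx, Cnp, Ncam1 and Cdh19, out of 50684 genes counted in the ears of mice. They were found by their symbols, and each symbol matched 1 Ensembl gene. The group was chosen by the level of S100b, which lay lower after the injection of both cytokines than after PBS, so the values of IL-17A + IL-36γ against PBS are a description without a test for all 8 genes, and so is every comparison of S100b. The other members were named with earlier results of these libraries known.

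The ears came from 8-week-old female C57BL/6 mice that received PBS, 1 µg of IL-17A, 1 µg of IL-36γ, or 1 µg of each in combination, in a volume of 5 µl into the skin of the ear pinna. Treatment ran over 4 consecutive days before the ears were collected, and the number of injections is not given in the sources used here. Each group of the study held 5 animals, of which 3 were sequenced, so that 12 libraries of 12 mice in 4 groups were analysed. A part of the ear was homogenized for RNA, so skin, nerve bundles, ear cartilage, fat and muscle could be measured together, and which part was taken is not given in the sources used here.

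Schwann cells are the glia of peripheral nerves. In the skin, myelinating Schwann cells wrap the larger axons of the nerve bundles, and non-myelinating Schwann cells accompany the thin axons that reach towards the epidermis. The transcription factor Sox10 is kept in all Schwann cells and, together with Egr2, drives the genes of compact myelin. Mbp, Prx and Cnp encode proteins of the myelin sheath, whereas Ncam1 and Cdh19 encode adhesion molecules of Schwann cells and S100b a calcium-binding protein widely used to stain them. None of these genes is confined to Schwann cells. S100b is also made by chondrocytes, adipocytes and melanocytes, Sox10 by melanocytes, Ncam1 by muscle and by some lymphocytes, and Egr2 by activated leukocytes.

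For a picture of the sequences that precede these genes, the promoters of S100b and Cnp are shown, the genes with the largest and the smallest difference between the ears with both cytokines and the PBS ears. RefSeq windows of 250 bases before to 50 bases after a start site were searched for 4 of the 8 genes, S100b, Cnp, Prx and Egr2, in the build GRCm38.p6. Mbp was left out of this search by choice. The S100b window is chr10:76253586-76253885 on the plus strand and the Cnp window is chr11:100574689-100574988 on the plus strand. Capitals mark the letters ACAAAG, a core letter run of the SOX factors.
S100b: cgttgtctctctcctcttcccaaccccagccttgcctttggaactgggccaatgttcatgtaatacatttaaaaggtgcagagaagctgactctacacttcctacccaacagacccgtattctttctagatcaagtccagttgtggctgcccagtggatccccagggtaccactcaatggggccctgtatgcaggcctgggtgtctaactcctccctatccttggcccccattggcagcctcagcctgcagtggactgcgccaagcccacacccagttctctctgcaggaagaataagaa
Cnp: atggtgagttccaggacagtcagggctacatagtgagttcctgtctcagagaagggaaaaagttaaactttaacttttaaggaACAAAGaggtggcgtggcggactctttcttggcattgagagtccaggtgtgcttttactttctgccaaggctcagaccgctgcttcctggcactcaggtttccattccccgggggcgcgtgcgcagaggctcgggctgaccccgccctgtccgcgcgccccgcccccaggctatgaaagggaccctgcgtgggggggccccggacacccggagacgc
The letters ACAAAG or ACAATG were searched on both strands, as was GCGNGGGCG, a letter run of the EGR factors. The Cnp window held ACAAAG once on the plus strand, 167 bases before the start site, and the windows of S100b, Prx and Egr2 held none of these letters. Of 32851 promoter windows of the same length, 28.6% held one of the SOX letter runs and 5.55% the EGR letter run. These matches describe letters and not bound sites.

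In the annotation of GRCm38, S100b lay on chromosome 10 from 76253853 to 76261159, and Egr2 on the same chromosome from 67535475 to 67542188. Sox10 lay on chromosome 15 from 79154908 to 79165240, Prx on chromosome 7 from 27499324 to 27520214, and Ncam1 on chromosome 9 from 49502136 to 49798925. Cnp was located on chromosome 11 from 100574904 to 100591729 and Cdh19 on chromosome 1 from 110888326 to 110977584. All 8 genes are protein coding. The exons of Prx, Ncam1 and Cnp overlapped a gene on the opposite strand in 5.38%, 4.81% and 4.23% of their length, and the strand setting of the counting is not given in the sources used here, so a small part of their counts may come from these neighbours.

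The libraries held 25293468 to 34759293 counted reads, and 19408 genes passed the filter on low counts, all 8 members among them. CPM values are the counts of a library divided by its TMM-adjusted size. Skeletal muscle transcripts differed widely between the libraries. The summed level of 10 muscle genes was 439.6 CPM in PBS replicate 1, against 3703 and 3221 CPM in the other two PBS ears, and it was 456.3, 271 and 1422 CPM in the ears with both cytokines. A sum of 7 neutrophil genes was 13.1 to 88.8 CPM in PBS and 7602 to 10030 CPM with both cytokines.

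Per kilobase of exon, S100b was the most abundant of the 8 genes in PBS-injected ears with 39.5 CPM per kb. Mbp followed with 11.1, Egr2 with 9.56, Cnp with 6.15, Prx with 5.51 and Cdh19 with 4.05 CPM per kb. Sox10, with 1.70 CPM per kb, and Ncam1, with 1.37 CPM per kb, were the lowest. On this scale the PBS libraries of Mbp and Egr2 overlapped, as did those of Cnp and Prx and those of Prx and Cdh19. The other neighbours in this order did not overlap. As a check of the tissue, Ncmap, a membrane protein of peripheral myelin, was found at 16.1 ± 1.64 CPM (SD, n = 3) in PBS.

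The level of S100b was 44.5, 61.9 and 69.4 CPM in the 3 PBS ears and 64.7, 59.0 and 36.7 CPM in the 3 IL-17A ears. After IL-36γ it was 39.4, 30.4 and 40.0 CPM, and after both cytokines 18.8, 24.6 and 24.1 CPM. The ears with both cytokines were the lowest of all, every IL-36γ ear lay between them and the PBS ears, and the IL-17A ears overlapped both PBS and IL-36γ. The order of the means was PBS with 58.6 ± 12.8, IL-17A with 53.5 ± 14.8, IL-36γ with 36.6 ± 5.37 and IL-17A + IL-36γ with 22.5 ± 3.21 CPM (SD, n = 3 each). With IL-36γ the fitted log2 difference from PBS was -0.68 (SE 0.21) and with IL-17A -0.13 (SE 0.21). The difference between both cytokines and PBS, which chose the group, was -1.38 (SE 0.22), or 0.384 of the PBS level. Against IL-17A it was -1.25 (SE 0.22) and against IL-36γ -0.70 (SE 0.22).

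Sox10, the lineage factor, was found at 4.93, 4.96 and 5.70 CPM in PBS and at 4.62, 5.55 and 4.91 CPM after IL-17A. The IL-36γ ears held 3.03, 3.47 and 4.89 CPM and the ears with both cytokines 3.04, 2.20 and 2.91 CPM. The IL-17A ears thus overlapped PBS, whereas the libraries with both cytokines lay below every PBS and every IL-17A library and overlapped those of IL-36γ. Sox10 fell with both cytokines against IL-17A by 0.89 on the log2 scale (SE 0.19, adjusted p = 0.00485). With IL-36γ against PBS the difference was -0.45 (95% interval -0.86 to -0.048) and did not pass the test (adjusted p = 0.0858). These values rest on 60 to 188 counted reads per library, the fewest of the 8 genes.

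Egr2, the factor of the myelin programme, was at 33.8, 30.2 and 33.4 CPM in PBS and at 23.3, 34.5 and 32.7 CPM after IL-17A. It was at 26.6, 22.5 and 26.2 CPM after IL-36γ and at 22.4, 22.8 and 22.9 CPM after both cytokines. Of the 6 ears without IL-36γ, only IL-17A replicate 1 lay within the range of the 6 ears with IL-36γ. Egr2 fell with IL-36γ against PBS by 0.37 (SE 0.13, adjusted p = 0.0442) and with both cytokines against IL-17A by 0.41 on the log2 scale (SE 0.13, adjusted p = 0.028). The first no longer passed without PBS replicate 1 (adjusted p = 0.0767) or with the replicate number as a block (0.0518). Nor did it pass without any other single PBS or IL-36γ ear, IL-17A replicate 3, or replicate 1 or 3 of both cytokines. Its highest adjusted p among the alternatives was 0.156. The second no longer passed in 8 of 20 alternatives. These were library size only (adjusted p = 0.0503), a fit of only its 2 groups (0.0586), the mean level of the muscle list as a covariate (0.141), and the omission of IL-17A replicate 2 or 3 or of any of the 3 ears with both cytokines (0.0668 to 0.158). Egr2 is also induced with the immediate early genes, and in a list of 8 such genes, which did not contain it, 5 rose with IL-36γ against PBS, as did 17.3% of all genes.

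Among the genes of the sheath itself, Mbp, whose protein holds the myelin layers together on their inner side, was the highest in CPM. It was at 79.8, 103 and 99.1 CPM in PBS, at 78.5, 96.1 and 87.7 CPM after IL-17A, and at 86.8, 75.8 and 84.9 CPM after IL-36γ. The ears with both cytokines held 59.5, 60.1 and 69.1 CPM, which was below all 9 other libraries. Mbp fell with both cytokines against IL-17A by 0.48 on the log2 scale (SE 0.11, adjusted p = 0.00637), a level of 0.719 of that after IL-17A. With IL-36γ alone the difference from PBS was -0.19 (95% interval -0.42 to 0.048, adjusted p = 0.208).

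Prx encodes periaxin, which links the outer myelin membrane of Schwann cells to the surrounding matrix. Its level was 23.1, 34.7 and 34.4 CPM in PBS, 23.1, 32.9 and 28.5 CPM after IL-17A, and 26.4, 19.7 and 29.3 CPM after IL-36γ. It was 12.5, 15.6 and 19.0 CPM after both cytokines, again below every other library. Prx fell with both cytokines against IL-17A by 0.85 on the log2 scale (SE 0.21, adjusted p = 0.00921). The difference of IL-36γ from PBS was -0.29 (95% interval -0.73 to 0.15, adjusted p = 0.296). Mbp and Prx followed each other over the 12 libraries more closely than any other pair of the 8 genes, with a Pearson r of 0.979, and of 0.935 once the group means were removed, given as a description over libraries that share these groups and their muscle content.

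Cnp, which encodes an enzyme of non-compact myelin, had the smallest difference of the 8 genes between both cytokines and PBS. Its level was 16.8, 25.3 and 25.04 CPM in PBS, 24.5, 26.9 and 24.7 CPM after IL-17A, 29.4, 23.8 and 30.5 CPM after IL-36γ, and 18.4, 21.95 and 24.6 CPM after both cytokines. The groups overlapped in all 5 comparisons. No tested difference of Cnp passed in the fit of the 4 group means, and the interval of the difference between both cytokines and IL-17A reached from -0.57 to 0.12 on the log2 scale (adjusted p = 0.291). Its fitted value with IL-36γ against PBS was 0.32 (SE 0.16, adjusted p = 0.143), the only positive one of the 8 genes, and it passed with the muscle level as a covariate (0.31, SE 0.10, adjusted p = 0.0395).

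Of the adhesion molecules, Ncam1 was at 9.33, 12.6 and 13.8 CPM in PBS and at 12.5, 11.2 and 10.9 CPM after IL-17A. It was at 7.82, 6.31 and 8.13 CPM after IL-36γ and at 5.66, 6.04 and 6.99 CPM after both cytokines. All 6 ears that had received IL-36γ lay below all 6 that had not. Ncam1 fell with IL-36γ against PBS by 0.68 (SE 0.16, adjusted p = 0.00744) and with both cytokines against IL-17A by 0.89 on the log2 scale (SE 0.16, adjusted p = 0.00178). In both comparisons this was the lowest adjusted p of the members tested.

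Cdh19, a cadherin found in Schwann cells and their precursors, was at 12.4, 19.7 and 19.9 CPM in PBS and at 15.1, 17.3 and 14.2 CPM after IL-17A. It was at 10.2, 8.41 and 14.9 CPM after IL-36γ, which overlapped PBS replicate 1 and the IL-17A ears, and at 8.12, 8.49 and 8.76 CPM after both cytokines. Cdh19 fell with IL-36γ against PBS by 0.64 (SE 0.21, adjusted p = 0.0398) and with both cytokines against IL-17A by 0.88 on the log2 scale (SE 0.21, adjusted p = 0.00901). The first of these no longer passed when only the libraries of the 2 groups were fitted (adjusted p = 0.101). Nor did it pass without PBS replicate 2 or 3, IL-17A replicate 3, IL-36γ replicate 1 or 2, or replicate 1 of both cytokines. Its highest adjusted p among the alternatives was 0.147.

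**Figure D1:**
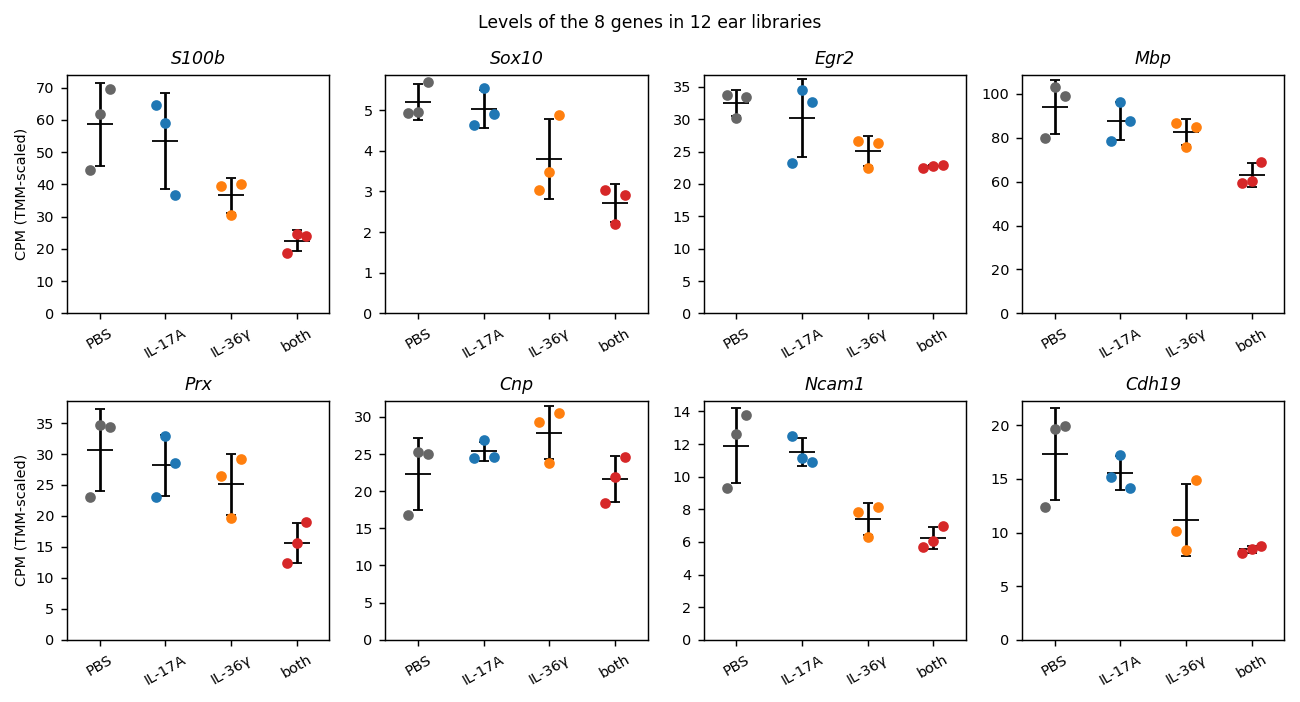
Level of each of the 8 genes in the 12 ears, with 1 panel per gene, the 4 groups on the x axis ("both" is IL-17A + IL-36γ) and TMM-scaled CPM on the y axis. Points are single mice in the order of their replicate numbers, and the black line and bar are the mean and SD of 3 mice. For S100b, Mbp and Prx the 3 ears with both cytokines lay below the 9 others, while the groups of Cnp overlapped.

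To see which cytokine the differences followed, each cytokine alone was compared with PBS. With IL-17A, 0 of the 7 members other than S100b passed the test of edgeR at an adjusted p below 0.05, while 10.9% of all 19408 genes did so in either direction. None of the 7 reached an unadjusted p below 0.05, and 0 passed in DESeq2 as well. The fitted values ranged from -0.16 for Cdh19 to 0.18 for Cnp on the log2 scale with adjusted p between 0.456 and 0.892. The 95% intervals of the 7 genes reached no further than -0.61 for Cdh19 and 0.52 for Cnp. With IL-36γ, 3 of the 7 genes fell (Ncam1, Cdh19 and Egr2) and 0 rose, against 11.1% of all genes that fell. The median of the 7 genes was -0.37 and that of all genes -0.015. None of the 7 was beyond -1 on the log2 scale, which together with the test was met by 1.98% of all genes. The libraries of 3 of the 7 lay below PBS without overlap (Sox10, Egr2 and Ncam1), as did those of 19.2% of all genes. The count of 3 depended on single mice and became 1 without PBS replicate 2 or 3, IL-17A replicate 3, IL-36γ replicate 1 or 2, or replicate 1 of both cytokines. It was 4 with library size only and with DESeq2, and 5 with the muscle level as a covariate, where Mbp fell (-0.20, adjusted p = 0.0473) and Cnp rose. Without PBS replicate 1, the ear poor in muscle transcripts, 3 genes passed, with Mbp in place of Egr2. IL-17A and IL-36γ were compared with the same PBS libraries.

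The addition of IL-36γ to IL-17A was then examined. Against IL-17A alone, 6 of the 7 members other than S100b fell with both cytokines and 0 rose, and of all genes 17.7% fell and 15.1% rose. The median of the 7 genes was -0.85 on the log2 scale, that of all genes -0.004. None of the 7 was beyond -1, which together with the test was met by 4.49% of all genes. The same 6 genes lay below IL-17A without overlap, as did 25.4% of all genes. The muscle list moved with this comparison, with 2322 to 3245 CPM after IL-17A and 271 to 1422 CPM after both cytokines. With the mean log2 level of the muscle list as a covariate, 1 of the 7 genes fell, Ncam1 (-0.54, SE 0.16, adjusted p = 0.0444), and the values of the other six were -0.74 for Sox10, -0.48 for Cdh19, -0.40 for Egr2, -0.38 for Prx, -0.21 for Mbp and 0.17 for Cnp. The muscle levels of these 2 groups did not overlap, so the share of the muscle content and that of IL-36γ in this comparison cannot be told apart by this fit.

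The addition of IL-17A to IL-36γ was compared in the same way. Against IL-36γ alone, 0 of the 7 members passed the test of edgeR, and 0.0206% of all genes passed it downwards. The fitted values ranged from -0.68 for Prx to -0.14 for Egr2 with adjusted p between 0.153 and 0.62. Of the 7 genes 4 had an unadjusted p below 0.05 (Sox10, Mbp, Prx and Cnp). In DESeq2 2 of them passed at any fold, Mbp (adjusted p = 0.0267) and Prx (adjusted p = 0.0425). The shares of all genes with an unadjusted p below 0.05 and of all genes that passed in DESeq2 are not given here. The counts of 4 and 2 are therefore not set against the share from edgeR. The libraries of Mbp and Prx lay below those of IL-36γ without overlap, as did those of 11.3% of all genes. The interaction, which asks whether the change by IL-17A differed between ears with and without IL-36γ, was called for 0 of the 7 genes and for 0.551% of all genes. Its values ranged from -0.56 for Prx to -0.036 for Egr2. Cnp had the only unadjusted p below 0.05 (0.0301, adjusted p = 0.178), and DESeq2 called 0. The interval for Prx was -1.19 to 0.075 and that for Ncam1 -0.68 to 0.28 on the log2 scale, so a moderate interaction was neither shown nor bounded closely. For S100b the value was -0.57 (SE 0.30).

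Between both cytokines and PBS, the contrast that chose the group, all 8 fitted values were negative, with a median of -0.93 on the log2 scale. They were -1.38 for S100b, -1.03 for Cdh19, -0.97 for Prx, -0.93 for Sox10, -0.93 for Ncam1, -0.58 for Mbp, -0.52 for Egr2 and -0.046 for Cnp. The libraries of 7 genes lay below PBS without overlap, as did those of 25.6% of all genes. S100b and Cdh19 were beyond -1, and of all genes 20.9% passed the test downwards and 6.06% also lay beyond -1. PBS replicate 1 had a summed muscle level of 439.6 CPM, within the range of the ears with both cytokines. It is 1 ear in the contrast that chose the group, and the part of the muscle content in these differences was not tested. In this ear Mbp was at 79.8, Prx at 23.1, Ncam1 at 9.33, Cdh19 at 12.4, Sox10 at 4.93, Egr2 at 33.8 and S100b at 44.5 CPM. Each of these 7 levels was above that in all 3 ears with both cytokines, whose highest values were 69.1, 19.0, 6.99, 8.76, 3.04, 22.9 and 24.6 CPM. Only Cnp was lower in this ear, with 16.8 CPM. With the muscle level as a covariate the fitted differences from PBS were -1.16 for S100b, -0.84 for Sox10, -0.73 for Cdh19, -0.68 for Ncam1, -0.63 for Prx, -0.51 for Egr2 and -0.39 for Mbp, and that of Cnp changed sign to 0.24. The same ear was also the lowest of the PBS ears for S100b, Sox10, Mbp, Prx, Ncam1, Cnp and Cdh19. In bulk tissue fewer Schwann cells and less RNA of these genes per cell cannot be told apart.

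**Figure D2:**
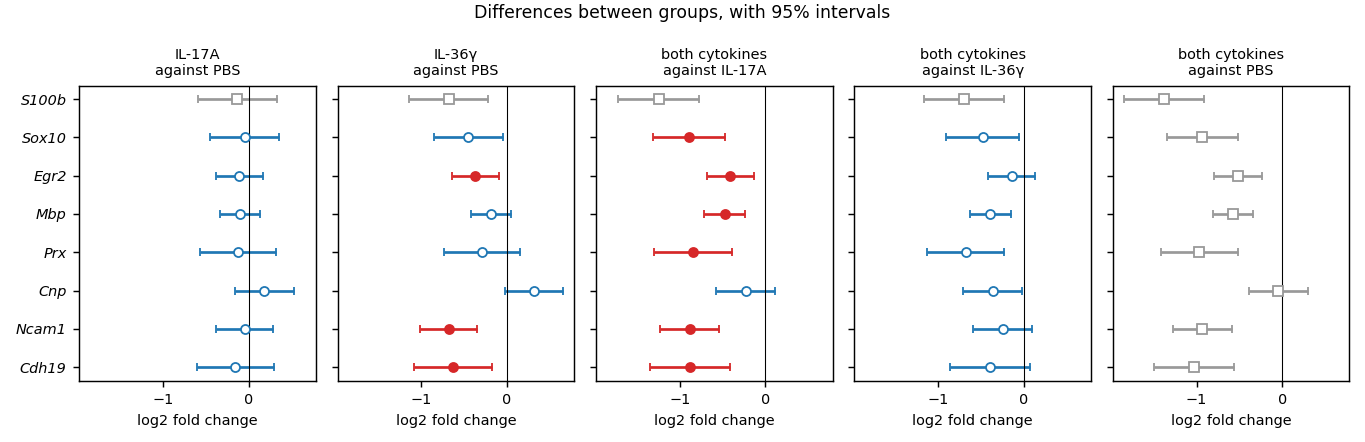
Fitted log2 fold changes of the 8 genes (y axis) in 5 comparisons, 1 per panel, with 95% intervals as bars. Filled red circles passed the test at an adjusted p below 0.05, open blue circles did not, and open grey squares are descriptions without a test. With IL-17A against PBS all intervals include 0, with IL-36γ against PBS 3 of the 7 tested genes passed, and with both cytokines against IL-17A 6 of the 7 tested genes passed.

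The myelin sheath was then followed with a wider list of 18 genes that did not hold the members, of which 17 were tested. With IL-17A against PBS 0 genes passed in edgeR, and 0 had an unadjusted p below 0.05. With IL-36γ against PBS 1 gene fell, Ncmap (-0.60, SE 0.12, adjusted p = 0.00404), and the median of the list was -0.33. In that comparison 11.1% of all genes fell. With both cytokines against IL-17A, 12 of 17 genes fell and 0 rose, against 17.7% and 15.1% of all genes, with a median of -0.77. Of these, 4 fell by more than 1 on the log2 scale. Among them were Pllp, a membrane protein of myelin (-1.23, SE 0.27, adjusted p = 0.00546), Mal, a protein of lipid sorting in myelin (-1.19, SE 0.24, adjusted p = 0.00359), and Fa2h, an enzyme of myelin lipids (-1.11, SE 0.23, adjusted p = 0.00391). Pllp was at 3.05 to 4.02 CPM in PBS, 3.02 to 4.06 CPM after IL-17A, 1.65 to 3.34 CPM after IL-36γ and 1.24 to 2.04 CPM after both cytokines. With the muscle level as a covariate 4 of the 17 genes fell in place of 12, and the count was 7 without IL-17A replicate 2. Against IL-36γ 0 genes passed in edgeR and 10 had an unadjusted p below 0.05, for which the share of all genes is not given here. Between both cytokines and PBS, as a description, all 17 values were negative with a median of -0.87, and the 4 lowest were those of Pllp (-1.26), Ncmap (-1.13), Cldn19 (-1.11) and Mal (-1.07).

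The genes of the Schwann cell lineage changed in both directions. Of all genes 17.7% fell and 15.1% rose with both cytokines against IL-17A, and 17.3% rose with IL-36γ against PBS. Of 8 lineage genes, with both cytokines against IL-17A 2 fell, Lgi4, a secreted factor needed for myelination (-0.63, SE 0.17, adjusted p = 0.0144), and Plekhb1 (-0.96, SE 0.27, adjusted p = 0.0184). In the same comparison Erbb3, the receptor for neuregulin on Schwann cells, rose (0.22, SE 0.076, adjusted p = 0.0457), and it also rose with IL-36γ against PBS (0.37, SE 0.076, adjusted p = 0.0047). Erbb3 is expressed in keratinocytes as well and was at 152 to 169 CPM in PBS, where Lgi4 was at 18.4 to 25.8 CPM. These 3 genes lay outside the rule for naming and were picked once their values were known. Between both cytokines and PBS, Fabp7, a fatty acid binding protein of glial precursors, was higher (1.52, SE 0.42) and Plekhb1 lower (-1.02, SE 0.27). The value of Fabp7 rests on few reads, 4 to 8 per library in PBS and 10 to 14 with both cytokines.

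With both cytokines against IL-17A, where 17.7% of all genes fell and 15.1% rose, 2 of 7 genes of non-myelinating Schwann cells fell. They were Scn7a, a sodium channel protein (-1.13, SE 0.26, adjusted p = 0.00638), and Ngfr, the low-affinity receptor of nerve growth factor (-0.96, SE 0.20, adjusted p = 0.00421), while the adhesion molecule L1cam rose (0.32, SE 0.079, adjusted p = 0.00907). With IL-36γ against PBS Ngfr fell (-0.59, SE 0.20, adjusted p = 0.0428), and L1cam (0.27, SE 0.079, adjusted p = 0.0251) and Chl1 (0.31, SE 0.071, adjusted p = 0.00858) rose. Of all genes 11.1% fell and 17.3% rose with IL-36γ against PBS. Ngfr, L1cam and Chl1 were chosen for naming after their values were seen in these comparisons. Of 7 tested genes of repair Schwann cells, the state taken after nerve injury, 0 passed with both cytokines against IL-17A in edgeR, and 1 had an unadjusted p below 0.05. With IL-36γ against PBS 1 rose, beside 17.3% of all genes. It was Jun, a transcription factor that drives this state and is induced in many cells (0.45, SE 0.15, adjusted p = 0.0393), also named after its value was seen. The neurotrophic factor Artn was higher with both cytokines than in PBS (1.82, SE 0.37), given as a description. This value rests on few reads, 3 to 7 per library in PBS and 11 to 17 with both cytokines. Only 3 of 8 axon genes were tested, and the neurofilament genes Nefl, Nefm and Nefh were among those that did not pass the filter. Tubb3, a neuronal tubulin, rose with both cytokines against IL-17A (0.79, SE 0.27, adjusted p = 0.0425), beside 15.1% of all genes. The other tested axon genes had negative values there, -0.54 for Uchl1 (adjusted p = 0.072) and -0.059 for Stmn2 (adjusted p = 0.831). Tubb3 did not meet the rule for naming in this comparison.

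**Figure D3:**
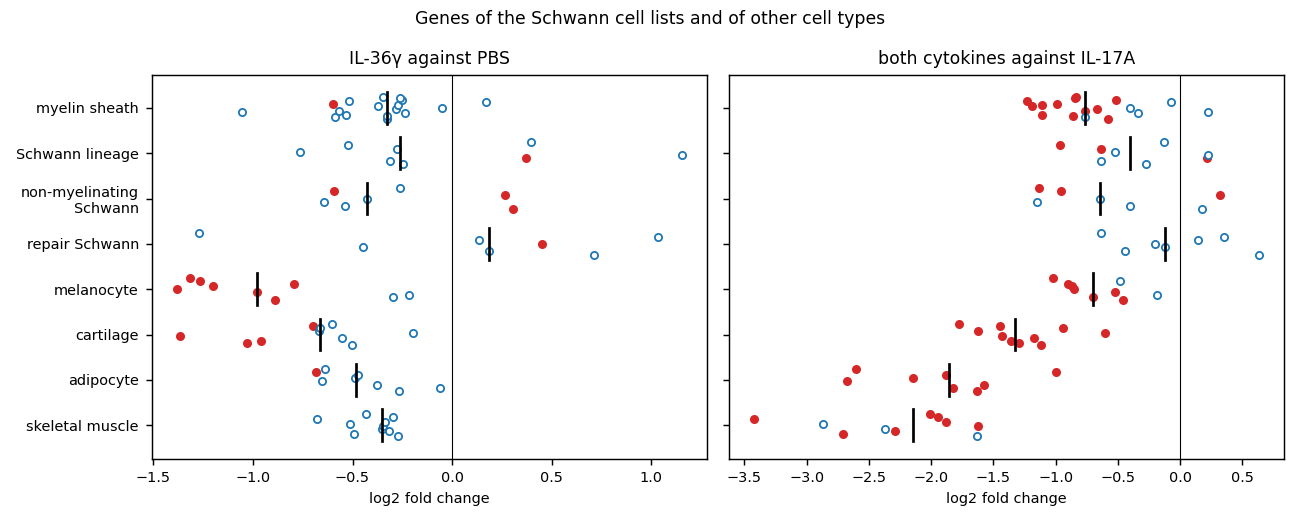
Log2 fold changes (x axis) of the genes of 4 Schwann cell lists and of 4 lists of other cell types (y axis), with IL-36γ against PBS on the left and both cytokines against IL-17A on the right. Each point is a gene, filled red where it passed the test at an adjusted p below 0.05 and open blue otherwise, and the black line is the median of a list. On the right 12 of 17 myelin sheath genes, 10 of 10 cartilage genes and 7 of 10 muscle genes fell.

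Since several of the 8 genes are also expressed outside nerves, the levels of other cell types were placed beside them. The cartilage list, led by Acan, held 322.5 to 419.2 CPM in PBS, 259.5 to 450 CPM after IL-17A, 216.2 to 261.9 CPM after IL-36γ and 144.4 to 190.8 CPM after both cytokines. Of its 11 genes 10 were tested, and Matn1 was near 0 with a mean of 0.0101 CPM in PBS. All 10 fell with both cytokines against IL-17A, with a median of -1.33 on the log2 scale, and 4 fell with IL-36γ against PBS. The melanocyte list, whose cells share Sox10 with Schwann cells, held 157.1 to 185.2 CPM in PBS, 129.8 to 151.1 CPM after IL-17A, 92.2 to 110.4 CPM after IL-36γ and 93.6 to 99.7 CPM after both cytokines. Of its 9 genes 7 fell with IL-36γ against PBS and 7 with both cytokines against IL-17A, and its median difference between both cytokines and IL-36γ was 0.04. The adipocyte list held 291.7 to 387.2 CPM in PBS and 104.6 to 170.3 CPM after both cytokines, and all 8 of its genes fell with both cytokines against IL-17A. The myelin sheath list held 497.1 to 554 CPM in PBS, 513.8 to 595.3 CPM after IL-17A, 359.7 to 442.2 CPM after IL-36γ and 267.9 to 321.8 CPM after both cytokines. The largest parts of this sum in PBS were Fa2h, with a mean of 165.1 CPM, and Pmp22, with 161.8 CPM. PBS replicate 1 had the highest sum of the PBS ears, 554 CPM, but the lowest median of the list (-0.145 on the log2 scale from the PBS mean). Of all genes 11.1% fell with IL-36γ against PBS and 17.7% with both cytokines against IL-17A. The part of the other cell types in the differences of the 8 genes was not tested.

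The genes whose pattern over the 12 libraries was most like that of S100b were on none of the Schwann cell lists. The 5 genes with the highest Pearson r of log2 CPM to S100b, among all 19408 tested genes, were Pdgfrl (0.986), Meltf (0.984), Ecrg4 (0.983), Snorc (0.982) and Hapln1 (0.979). Snorc and Hapln1 encode proteins of cartilage and belong to the cartilage list. Snorc was at 11.3 ± 1.64, 10.9 ± 3.47, 6.98 ± 0.728 and 4.00 ± 0.36 CPM in the order PBS, IL-17A, IL-36γ, both cytokines (SD, n = 3 each). With the group means removed the 5 values were 0.935, 0.93, 0.965, 0.909 and 0.957. The median r to S100b was 0.921 for the 10 cartilage genes, 0.882 for the 8 adipocyte genes, 0.861 for the other 7 members, 0.843 for the 17 myelin sheath genes and 0.032 for all genes. With the group means removed it was 0.784 for cartilage, 0.692 for adipocytes, 0.563 for the myelin sheath and -0.17 for melanocytes. IL-17A replicate 3 was the lowest of the IL-17A ears for S100b, with 36.7 CPM, for the cartilage list, with 259.5 CPM, for the adipocyte list, with 269 CPM, and for the myelin sheath list, with 513.8 CPM, while its Mbp level of 87.7 CPM lay between those of the other IL-17A ears. These correlations describe 12 libraries that share groups and tissue composition.

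The 5 genes closest to Sox10 were Zdhhc8 (0.975), Eda (0.969), Pm20d2 (0.957), Trat1 (0.956) and Edil3 (0.955), none of which is on a list used here. The median r to Sox10 was 0.81 for adipocytes, 0.78 for the myelin sheath and 0.777 for cartilage over the 12 libraries. With the group means removed it was 0.373 for adipocytes, 0.324 for the Schwann cell lineage, 0.307 for skeletal muscle, 0.233 for the myelin sheath, 0.047 for melanocytes and -0.089 for cartilage. The correlation between S100b and Sox10 themselves was 0.813 and fell to 0.06 once the group means were removed. The muscle list followed other members more closely, with a median r within groups of 0.841 for Mbp, 0.813 for Cnp, 0.788 for Ncam1 and 0.728 for Prx, against 0.022 for Egr2.

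**Figure D4:**
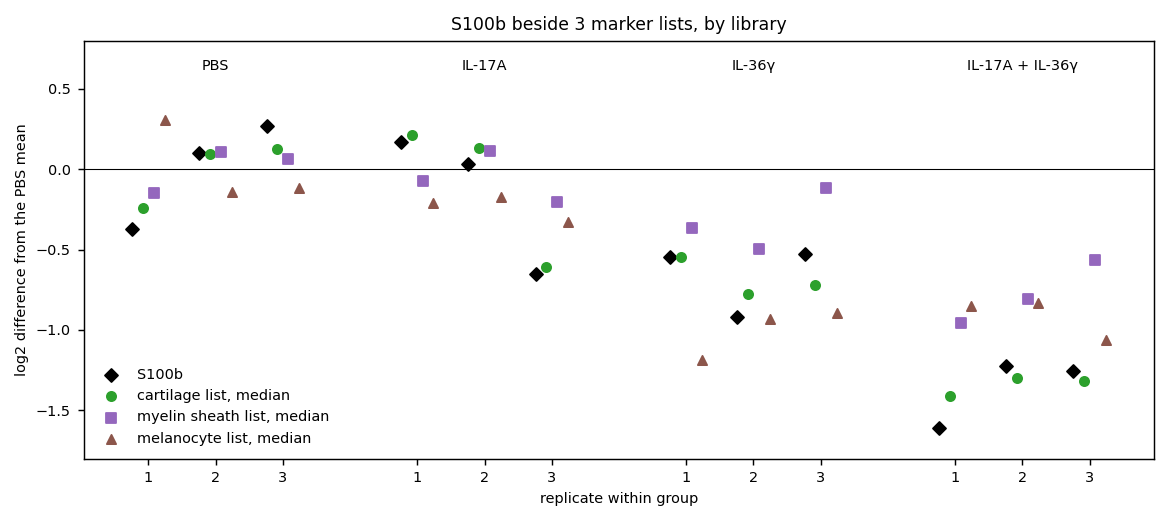
Log2 difference from the PBS mean (y axis) in each of the 12 libraries (x axis, replicates within the 4 groups) for S100b and for the medians of the cartilage, myelin sheath and melanocyte lists. S100b and the cartilage list lie close together in most libraries, IL-17A replicate 3 included, where they lay at -0.65 and -0.61 and the myelin sheath list at -0.20.

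**Figure D5:**
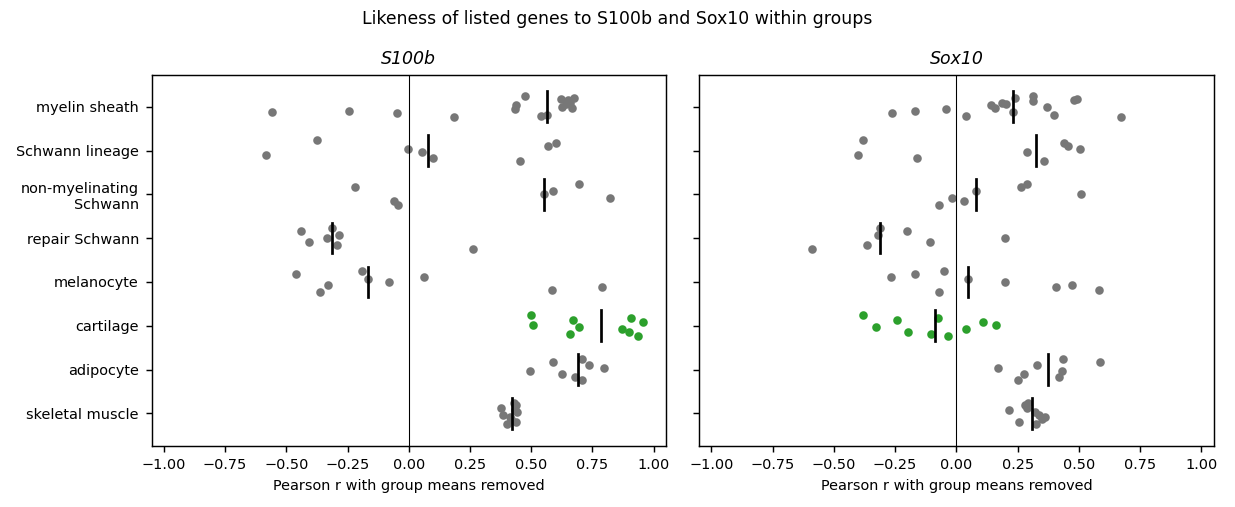
Pearson r of each listed gene (points) with S100b on the left and Sox10 on the right over the 12 libraries, after removal of the group means (x axis), by list (y axis), with the median of each list as a black line. The cartilage genes, in green, have a median of 0.784 with S100b and of -0.089 with Sox10.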

How the data were processed

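RNA-Seq of a part of the ear (TruSeq Stranded Total RNA with Ribo-Zero Gold, paired-end reads of 76 cycles) was analysed for 12 mice. Alignment by the authors used STAR (v2.5.2b) and mm10, and they deposited the counts per Ensembl gene from featureCounts (Subread v1.5.1), without normalization. The strand setting and the annotation release are not given in the sources used here. The authors' tables of their own comparisons hold fold changes and p-values from DESeq2 (v1.30.0), and only their gene symbols were used. The number of unused columns of samples was 0.

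Groups were taken from the labels, and the comparisons use separate mice. Counts were filtered with filterByExpr (minimum count 10), scaled by TMM and fitted with the quasi-likelihood test of edgeR 4.0.16 in R 4.3.3, with 1 fit of 12 libraries and Benjamini-Hochberg adjustment over all 19408 genes. A gene fell or rose at an adjusted p below 0.05, and a gene was called where the absolute log2 fold change was also above 1. For the interaction the adjusted p alone was used. The filter passes genes on their counts in at least the number of libraries of 1 group. CPM are the deposited counts scaled by TMM library sizes, also divided by the exon length of GENCODE vM21 (GRCm38), and log2 CPM used a prior count of 2. The biological coefficient of variation was 14.22%. No 2 libraries of a group were copies (chi-square per gene 7.094 to 64.05 over 12 pairs). The procedure was tested on simulated data.

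The 8 members, the lists and the tests were chosen with earlier results of these data known. The rule was to name all 8 members, up to 4 called genes of each Schwann cell and axon list per comparison with the largest difference, and the 5 genes most like S100b and the 5 most like Sox10. Of the myelin sheath list, 1 gene that met this rule is not reported here. The alternatives were the size factors of DESeq2 1.42.0 (RLE) or library size only, 10 or more counts in every library or no filter, the likelihood ratio test of DESeq2, the replicate number as a block, a call without the fold threshold, a fit of only the 2 groups compared, the mean log2 CPM of the muscle list as a covariate, and each library left out. The counts without a fold threshold, the correlations with group means removed and the values without PBS replicate 1 were added with the data in view. The promoter windows come from RefSeq. Same-numbered samples of the groups IL-36γ and both cytokines deviated together, with correlations of 0.128, 0.188 and 0.24, so that comparison was also read with the replicate number as a block. Neither the labels nor the study's methods say what the numbers mark.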

Additional observations from a re-analysis of the deposited data

Results flagged for a closer look

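In the immediate early list placed beside Egr2, the interaction of IL-17A and IL-36γ passed the test of edgeR for 4 of 8 genes, beside 0.551% of all genes. A pass means that the change by IL-17A differed between ears with and without IL-36γ. The log2 values were -3.672 for Fos (SE 0.724, adjusted p = 0.0498), -1.26 for Junb (SE 0.22, adjusted p = 0.0437), -1.97 for Egr1 (SE 0.333, adjusted p = 0.0429) and -1.15 for Ier2 (SE 0.186, adjusted p = 0.0412). These 4 adjusted p lay close to the threshold of 0.05, and the alternatives were not read for these genes. The summed level of the list was 363.3 CPM in IL-17A replicate 1, against 832.9 and 701.5 CPM in replicates 2 and 3. The interaction of Egr2 was -0.036 (SE 0.179, adjusted p = 0.925).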

How the results depend on the processing

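Of 952 alternative values of single members, 894 were counted as unchanged, while 29 no longer passed and 8 newly passed at an adjusted p below 0.05, at any fold. For the 693 tested values, unchanged means the same direction and the same side of the threshold. The 259 described values had no test, and some of those counted as unchanged changed sign. S100b with IL-17A against PBS went from -0.131 to 0.081 without IL-17A replicate 3. Cnp with both cytokines against PBS went from -0.046 to between 0.047 and 0.059 with 1 library left out. The sign changed in 20 alternative values, 15 tested and 5 described. No called value changed sign. With no fold change threshold the genes called were 3 in place of 0 with IL-36γ against PBS and 6 in place of 0 with both cytokines against IL-17A. Between both cytokines and PBS no count is read, since this contrast chose the group. There the fitted values ranged over the alternatives from -1.542 to -1.159 for S100b and from -1.223 to -0.732 for Cdh19, the genes beyond -1 in the main fit. At any fold, the 3 genes with IL-36γ against PBS became 1 to 3 with 1 library left out, 4 with library size only and with DESeq2, 2 with only the groups compared and 5 with the muscle covariate, and the 6 genes with both cytokines against IL-17A became 5 to 6 and, with the muscle covariate, 1. With both cytokines against IL-36γ DESeq2 gave 2 in place of 0, and the share of all genes that passed in DESeq2 is not given here. Library size only moved the median of all genes with IL-17A against PBS from 0.042 to -0.128, with IL-36γ against PBS from -0.015 to -0.165, and that of the interaction from -0.07 to 0.107.

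For the myelin sheath list with IL-36γ against PBS, the count called was 1 in place of 0 with library size only and 0 to 1 with 1 library left out. The count at any fold, 1, became 2 with RLE size factors, with no filter, with at least 10 counts in every library, with DESeq2 and with only the groups compared, 8 with library size only, 4 with the muscle covariate and 1 to 4 with 1 library left out. With both cytokines against IL-17A, the 4 called genes became 1 with the muscle covariate and 2 to 6 with 1 library left out (2 without replicate 1 of both cytokines), and the 12 at any fold became 4 and 7 to 13.

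Replicate numbers are shared between the groups. The correlation of deviations was above 0.1 in 9 of 18 same-number pairs (range -0.199 to 0.352), and the best match carried the same number in 20 of 36 cases. Pairing was thus not shown across the groups. Only between IL-36γ and both cytokines were all 3 pairs above 0.1. There the replicate block left 0 of 7 members (lowest adjusted p = 0.114) and 0 of 17 myelin sheath genes (0.0923) past the test. Of all genes tested 0 passed in this fit, so these counts say nothing particular to the lists. Elsewhere, the 3 genes at any fold with IL-36γ against PBS became 2 with the replicate block, with Egr2 at an adjusted p of 0.0518, and the myelin sheath list gave 3 in place of 1. The block lost no other member.

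Values that changed sign were all uncalled. With IL-17A against PBS the range with 1 library left out reached from -0.326 to 0.081 for S100b, from -0.157 to 0.018 for Sox10, from -0.249 to 0.016 for Egr2 and from -0.192 to 0.064 for Ncam1. In the interaction it reached from -0.15 to 0.116 for Egr2 and from -0.413 to 0.037 for Cdh19, with both cytokines against PBS from -0.215 to 0.059 for Cnp, and library size only gave 0.137 for Egr2. With the muscle covariate Cnp was at 0.166 against IL-17A and Ncam1 at 0.015 against IL-36γ with both cytokines, Cnp against PBS went from -0.046 to 0.242 with both cytokines, and the interaction was 0.159 for Ncam1 and 0.169 for Cdh19. The cause was not tested. The 3 ears per group and, for Sox10, 60 to 188 reads per library limit these comparisons.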
